A study of Mus musculus with 20 samples.

Results

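Lysosomes break down what a cell takes up or discards, and their genes were followed here in the cortex of an amyloid mouse model. The 40 genes described were chosen by symbol from the 43346 genes of the count table, and all 40 were found. They comprise 21 hydrolases (11 glycosidases, 4 sulfatases, 4 lipid or acyl hydrolases and 2 proteases other than cathepsins), 3 lumenal cofactors, 7 membrane proteins, the transcription factor Tfeb, and 8 subunits of the V-ATPase. Cathepsins were left out. Bulk RNA-seq was available for 20 libraries, 5 in each of 4 groups. Every group, controls included, carried the 5xFAD transgenes (written 5xFAD+/-), which are expressed from the neuronal Thy1 promoter and lead to amyloid deposits. The control groups had wild-type Abca7 (Abca7WT/WT) at 3 or at 10 months of age. The knockin (KI) groups, at the same ages, carried the mouse A693S substitution in Abca7, which stands for the human A696S variant. The protocol names both heterozygous and homozygous knockins, and the KI label does not tell them apart. All mice were described as male littermates, no treatment was given in the labels, and no mice without the transgenes were included, so age and the amyloid that builds up with it cannot be told apart.

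Most lysosomal hydrolases work only in acid, and the V-ATPase supplies it: its cytosolic V1 part splits ATP and its membrane V0 part moves protons into the lumen. Membrane proteins such as LAMP1 and LAMP2 line the organelle and carry out transport and signalling, while lumenal cofactors present lipids to enzymes or carry them onward. TFEB is a transcription factor known to drive many of these genes together through a short DNA element, and in brain the lysosomes of microglia are known to enlarge around amyloid.

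Library totals ran from 42896149 to 57447015 counts, and all 40 genes were among the 19623 that passed the filter on low counts. Atp6v0d2 passed only through the 10-month groups, so its change with age is described without a test and it is left out of the counts of genes that rose. Abca7 itself, the gene carrying the substitution, had group means from 24.1 to 28.2 CPM (counts scaled to a common library total) and was not called in any contrast; a substitution need not alter its level. Neuron markers dominated every library (9 of 9 detected, summed 8371 to 9585 CPM). Choroid plexus markers (7 of 7 detected) varied widely within groups, from 24.5 to 2220 CPM over all libraries, and thalamus markers (5 of 5) reached 127 CPM at 3 months and at most 27.4 CPM at 10 months. The library labelled KI replicate 5 at 10 months did not match the description as male, with 54206 Xist counts and 1 count of the Y-linked Ddx3y, where the 19 other libraries had at most 218 and at least 2382. Whether each library came from its own animal is not stated, and p-values here rest on the variation among libraries, which may be partly technical. In bulk tissue, fewer cells of a type and less RNA per cell cannot be told apart.

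Between 3 and 10 months the lysosomal genes moved unevenly. In control mice 10 of the 39 genes other than Atp6v0d2 rose and none fell (edgeR quasi-likelihood test, adjusted p under 0.05), where 4.07% of all genes tested were called, 3.72% upward and 0.357% downward. In KI mice 12 of the 39 rose and none fell, against 8.06% of all genes called, 5.66% upward and 2.41% downward. The 10 genes called in control (Lyz2, Cd68, Gusb, Hexa, Laptm5, Npc2, Man2b1, Grn, Lgmn and Tpp1) were all called in KI (100% of the control calls and 83.3% of the KI calls), and Naglu and Lamp1 passed the threshold in KI and not in control. The difference in age change between the genotypes did not pass for either (log2 0.28 ± 0.23 for Naglu and 0.09 ± 0.07 for Lamp1, adjusted p = 0.999 for both, interaction term). The median log2 change of the 39 was 0.12 in control and 0.14 in KI, and that of all genes tested was -0.003 in both. Without KI replicate 5 at 10 months, 13 of the 39 rose in KI, Idua being the addition. In 12 of the 39 genes in each genotype, every 10-month library lay above every 3-month library, against 4.56% of all genes in control and 5.34% in KI.

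By class, 6 of the 21 hydrolases rose in control and 7 in KI, with median log2 changes of 0.17 and 0.16. Of the 3 cofactors 2 rose in each genotype (medians 0.72 and 0.82), and of the 7 membrane proteins 2 rose in control and 3 in KI (medians 0.12 and 0.21). Of the 7 V-ATPase subunits other than Atp6v0d2 none was called in either genotype, with medians of -0.02 and 0.10 (unadjusted p under 0.05 in 0 of the 7 in control and in 1, Atp6v0d1, in KI, and no call by DESeq2 or limma-voom). With Atp6v0d2 counted among 8 subunits, the median of the hydrolases lay 0.17 above that of the V-ATPase in control and 0.06 above it in KI. Leaving out 1 library at a time moved the first value between 0.15 and 0.19 and the second between 0.04 and 0.12. The second came to 0.12, 0.08 and 0.09 without KI replicate 3 at 3 months and without KI replicates 3 and 4 at 10 months.

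**Figure D1:**
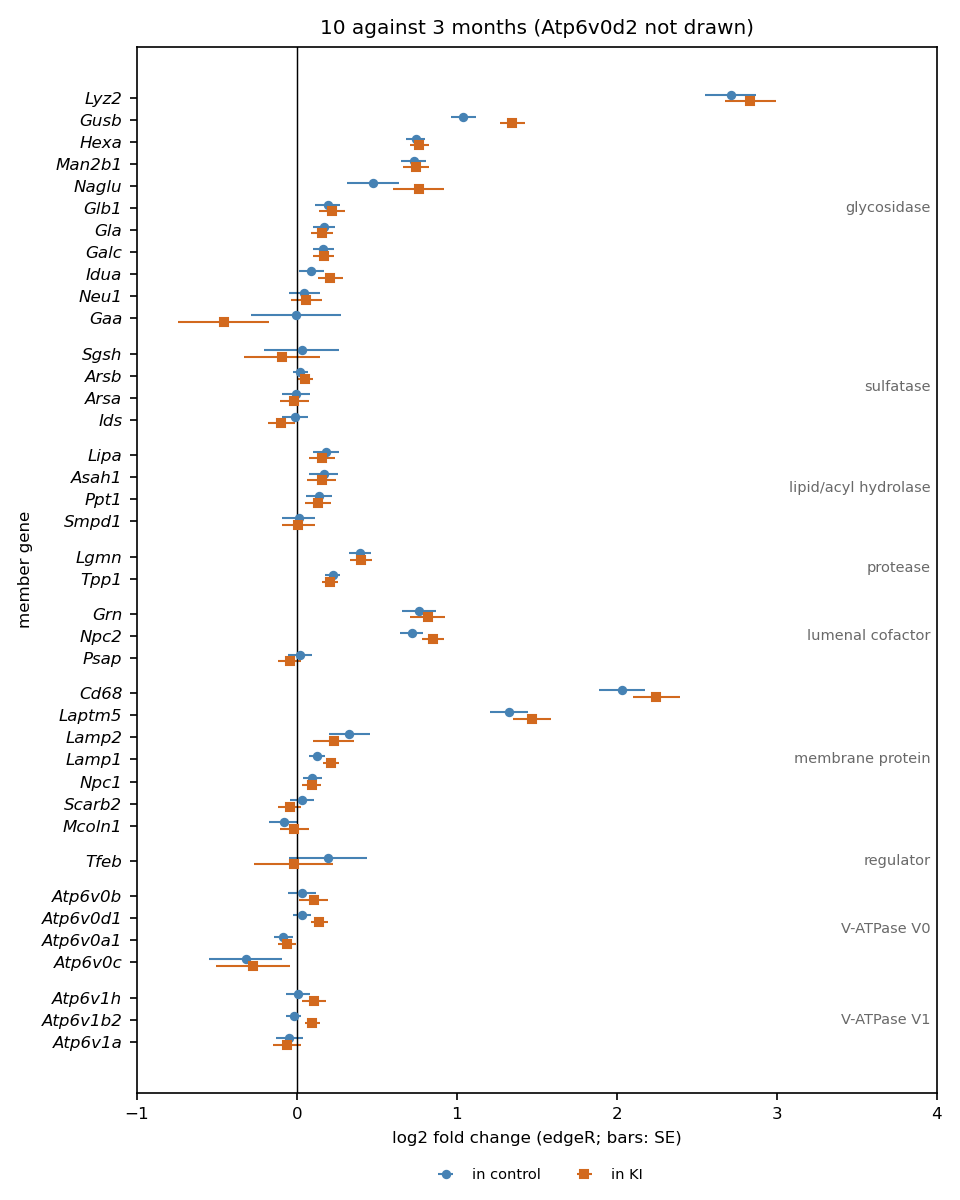
Log2 fold change from 3 to 10 months (horizontal axis, edgeR, bars are SE) for 39 of the 40 genes, grouped by class, in control (circles) and KI (squares). Lyz2, Cd68, Laptm5 and Gusb lie above 1 in both genotypes, and the 7 V-ATPase subunits drawn lie between -0.32 and 0.14.

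Among the glycosidases, Lyz2 changed most. Lyz2 (chr10:117277334-117282274, mm10) encodes lysozyme, which cleaves bacterial cell walls and is a product of myeloid cells. Control libraries, listed here and throughout in order of replicate number, stood at 7.33, 8.20, 7.35, 7.83 and 4.94 CPM at 3 months and 44.7, 44.2, 42.6, 45.3 and 57.0 at 10 months. KI libraries stood at 8.96, 11.3, 8.08, 6.99 and 11.4 CPM at 3 months and 60.1, 54.9, 90.7, 64.8 and 62.8 at 10 months. The ages did not overlap in either genotype, and KI replicate 5 at 10 months was the highest of all. Lyz2 was 6.55 times as high at 10 months in control (log2 2.71 ± 0.16 SE, adjusted p = 2.53e-09) and 7.13 times in KI (2.83 ± 0.16, adjusted p = 2.00e-10, edgeR). Its paralogue Lyz1 shares 95.8% of 1264 aligned bases and had only 4 to 99 counts per library, and the sum of both genes gave folds of 6.56 and 7.06.

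Gusb (chr5:129989011-130003049) encodes β-glucuronidase, which trims glycosaminoglycans. Its control libraries stood at 16.3, 17.9, 16.0, 15.4 and 15.4 CPM at 3 months and 31.2, 33.5, 33.4, 30.2 and 38.4 at 10 months, and its KI libraries at 16.6, 15.9, 17.0, 14.9 and 16.9 CPM and then 39.0, 37.0, 48.1, 42.4 and 40.5. At 3 months the genotypes lay within the same narrow band, and at 10 months every library of either genotype was above all of these. The age folds were 2.06 in control (1.04 ± 0.08, adjusted p = 1.15e-08) and 2.54 in KI (1.35 ± 0.08, adjusted p = 2.08e-10, edgeR). Hexa (chr9:59539667-59565105) encodes the α subunit of β-hexosaminidase, which removes a sugar from GM2 ganglioside. Control libraries had 50.3, 51.9, 50.6, 53.8 and 50.1 CPM at 3 months and 76.8, 90.6, 80.9, 86.2 and 94.8 at 10 months, and KI libraries 49.9, 56.2, 56.3, 52.9 and 57.5 and 92.6, 88.1, 97.0, 91.2 and 94.9. The ages again did not overlap, and the folds of 1.67 and 1.70 were close in the genotypes (log2 0.74 ± 0.06 and 0.77 ± 0.06, adjusted p = 2.37e-08 and 1.13e-08, edgeR).

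Man2b1, the lysosomal α-mannosidase, went from a mean of 53.5 to 88.7 CPM in control (log2 0.73 ± 0.08) and from 53.3 to 89.4 in KI (0.75 ± 0.08), with adjusted p of 2.40e-06 and 1.36e-06. Naglu, which acts on heparan sulfate, went from 6.98 ± 1.66 to 11.9 ± 1.41 CPM in KI (log2 0.76 ± 0.16, adjusted p = 0.00413, n = 5, edgeR), and from 7.46 ± 1.42 to 10.4 ± 1.89 in control, where it was not called (0.48 ± 0.16, adjusted p = 0.125, edgeR). The 6 other glycosidases were not called in either genotype by the main edgeR fit or DESeq2, and limma-voom called Galc and Idua in KI. Of these, Glb1 (β-galactosidase), Gla (α-galactosidase A), Galc (galactocerebrosidase), Idua (α-iduronidase) and Neu1 (a sialidase) had log2 changes between 0.05 and 0.22. Gaa, which digests lysosomal glycogen, had -0.01 in control and -0.46 in KI, the latter with an SE of 0.28.

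None of the 4 sulfatases and none of the 4 lipid hydrolases was called with age in either genotype by edgeR, and none of these 8 genes had an unadjusted p under 0.05 except Lipa in control. DESeq2 and limma-voom called none of the 8 either. Asah1 was called in both genotypes only in an edgeR setting given below, with a slope on GC content as a covariate. Sulfatases remove sulfate from glycosaminoglycans and glycolipids. Arsb (chr13:93771679-93943016, arylsulfatase B) had 151, 156, 151, 145 and 142 CPM in control at 3 months and 154, 144, 154, 161 and 143 at 10 months, and in KI 164, 158, 156, 152 and 150.2 and 163, 161, 161, 169 and 156. All 4 groups overlapped, and the log2 age changes were 0.02 ± 0.05 and 0.05 ± 0.05. Arsa, Ids and Sgsh had age changes between -0.10 and 0.03. Asah1 (acid ceramidase), Lipa (acid lipase) and Ppt1 (palmitoyl-protein thioesterase) had values between 0.13 and 0.18, and Smpd1 (acid sphingomyelinase) 0.01 and 0.01.

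Both proteases rose in both genotypes, by less than the leading glycosidases. Lgmn, the asparaginyl endopeptidase legumain, went from 93.9 ± 5.48 to 123 ± 11.4 CPM in control and from 99.4 ± 9.87 to 131 ± 4.08 in KI (n = 5 each, log2 0.39 ± 0.07 and 0.40 ± 0.07, adjusted p = 0.00115 and 0.000739, edgeR). Tpp1, a tripeptidyl peptidase, went from 92.0 ± 2.44 to 107 ± 5.39 in control and from 92.4 ± 3.88 to 107 ± 5.05 in KI (log2 0.22 ± 0.05 and 0.21 ± 0.05, adjusted p = 0.00744 and 0.00915, n = 5, edgeR). Tpp1 was not called in KI with only the KI libraries in the fit. Another setting, chosen after the data had been examined, kept the 9 libraries with little choroid plexus RNA (summed markers under 500 CPM). Neither protease was called there in either genotype. Every group then held fewer than 5 libraries. At 3 months these were control replicates 6 and 7 and KI replicates 4 and 6. At 10 months they were control replicates 9 and 10 and KI replicates 4, 5 and 6, so little could be detected. Calls over all genes fell as well, from 799 to 166 in control and from 1582 to 370 in KI. What part choroid plexus RNA has in the lost calls was not tested.

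The lumenal cofactors split. Npc2 (chr12:84754560-84773112) encodes a small carrier that takes cholesterol out of the lumen. Control libraries stood at 45.1, 44.5, 49.0, 46.8 and 47.9 CPM at 3 months and 70.6, 71.7, 84.3, 82.0 and 74.9 at 10 months, and KI libraries at 44.1, 48.1, 53.9, 48.0 and 55.5 and 88.0, 81.2, 96.8, 93.2 and 91.8. The ages did not overlap, and the folds were 1.64 in control (0.72 ± 0.07, adjusted p = 4.43e-07) and 1.81 in KI (0.85 ± 0.07, adjusted p = 2.90e-08, edgeR). Grn, the precursor of the granulins, went from 61.8 to 105 CPM in control (log2 0.77 ± 0.11) and from 63.3 to 112 in KI (0.82 ± 0.11, adjusted p = 5.79e-05 and 2.04e-05, edgeR). Psap, the precursor of the saposins that activate sphingolipid hydrolases, was the most abundant of the 40 per length (570.5 CPM per kilobase over all libraries) and had log2 age changes of 0.02 ± 0.07 and -0.05 ± 0.07, not called.

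Among the membrane proteins the largest changes were in Cd68 and Laptm5, which are known mainly from myeloid and other blood-lineage cells. Cd68 (chr11:69664213-69666153), a heavily glycosylated LAMP relative, had 9.44, 11.1, 7.89, 8.84 and 6.06 CPM in control at 3 months and 28.2, 33.9, 42.1, 37.3 and 35.8 at 10 months. In KI it had 8.03, 10.5, 9.09, 8.96 and 11.0 CPM and then 45.1, 33.6, 53.0, 47.5 and 46.6. The lowest 10-month library was above the highest 3-month one in each genotype, with folds of 4.09 (2.03 ± 0.15, adjusted p = 7.61e-09) and 4.75 (2.25 ± 0.15, adjusted p = 1.25e-09, edgeR).

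Laptm5 (chr4:130913125-130936141) encodes a multispanning lysosomal protein. Control libraries stood at 34.3, 36.1, 31.8, 28.9 and 26.5 CPM at 3 months and 62.9, 66.8, 87.9, 87.5 and 90.5 at 10 months, and KI libraries at 25.4, 33.5, 32.0, 34.7 and 36.8 and 90.8, 76.6, 85.0, 101 and 97.2. There was no overlap of ages, and Laptm5 was 2.51 and 2.78 times as high at 10 months (1.33 ± 0.12 and 1.47 ± 0.12, adjusted p = 1.78e-07 and 2.75e-08, edgeR). Lamp1 (chr8:13159135-13175338), a main glycoprotein of the lysosomal membrane, had 282, 287, 293, 283 and 282 CPM in control at 3 months and 294, 296, 327, 314 and 325 at 10 months, and in KI 278, 286, 289.9, 291 and 319 and 341, 323, 371, 337 and 326. The ages did not overlap in either genotype, but the change was small, and it passed the test in KI (0.21 ± 0.05, adjusted p = 0.00977) and not in control (0.12 ± 0.05, adjusted p = 0.253, edgeR). With only the 10 KI libraries in the fit, Lamp1 had an adjusted p of 0.066 in KI and was not called.

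The 4 other membrane proteins were not called by the main edgeR fit or DESeq2, and limma-voom called Lamp2 in KI. Lamp2, the other main membrane glycoprotein, did not overlap between ages in control (0.33 ± 0.13, adjusted p = 0.217, edgeR) and had 0.23 ± 0.13 in KI (adjusted p = 0.317, edgeR). Npc1, the membrane partner of Npc2 in cholesterol export, had 0.10 ± 0.06 in control and 0.09 ± 0.06 in KI. Scarb2, the receptor that brings glucocerebrosidase to the lysosome, had 0.03 ± 0.07 and -0.05 ± 0.07, and Mcoln1, a calcium channel, -0.08 ± 0.09 and -0.02 ± 0.09.

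**Figure D2:**
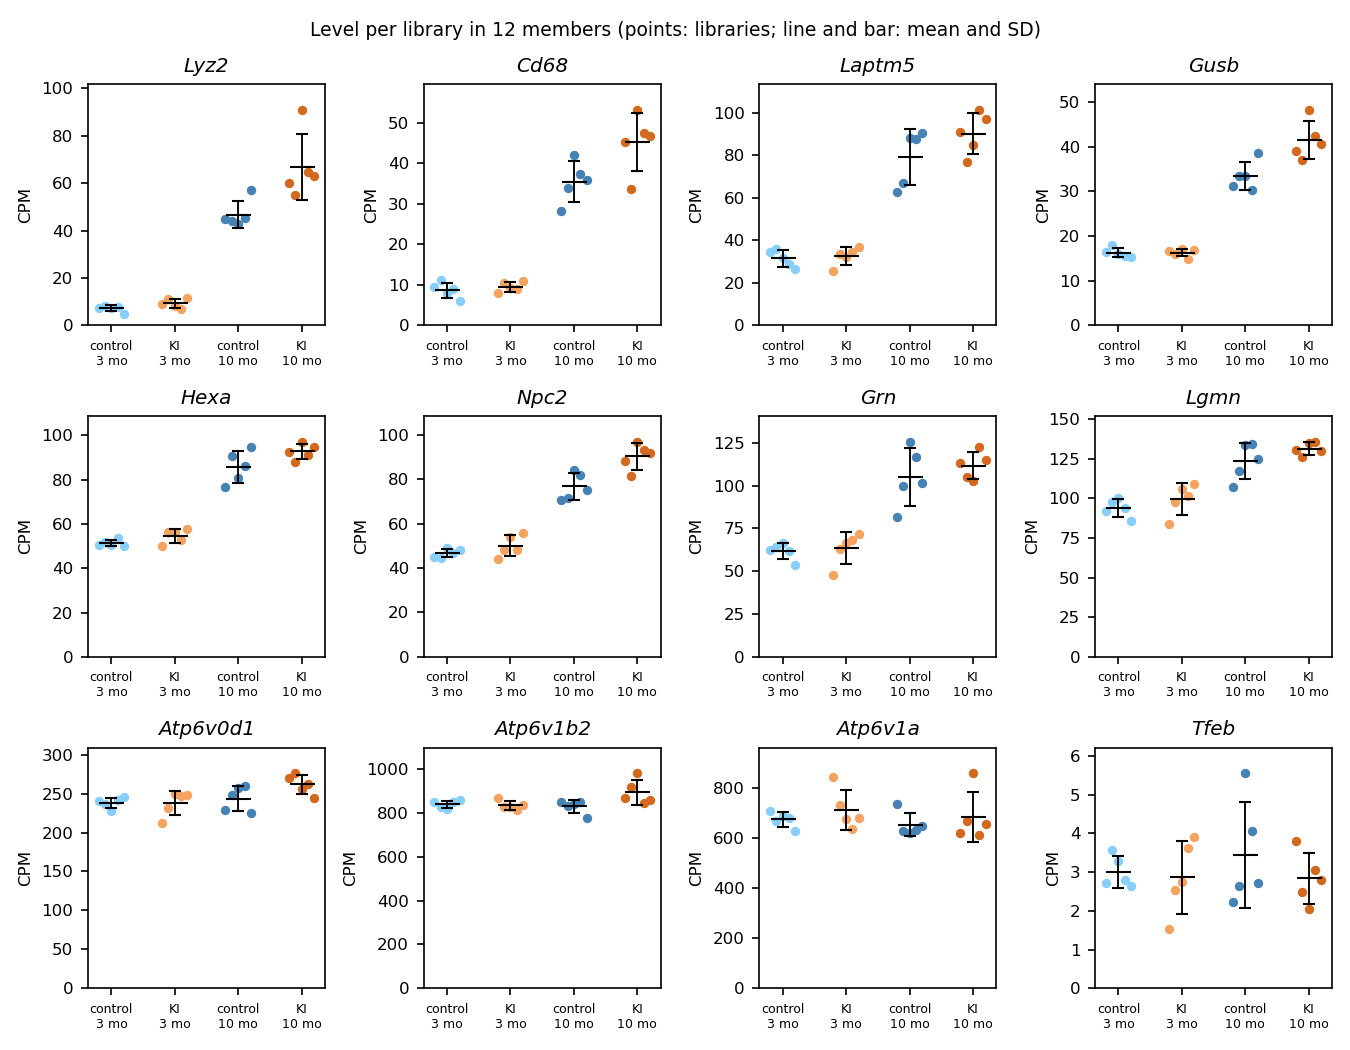
CPM of 12 of the 40 genes in every library (points), with mean and SD (n = 5) of the 4 groups on a linear axis from 0. In the 8 genes of the upper 2 rows the 10-month points lie above the 3-month points of the same genotype, while Atp6v0d1, Atp6v1b2, Atp6v1a and Tfeb overlap between ages.

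Of the 8 V-ATPase subunits, 5 were among the most abundant of the 40 transcripts per length. Atp6v1b2 came to 160.2 CPM per kilobase, Atp6v0d1 to 137, Atp6v1a to 113, Atp6v0b to 87.4 and Atp6v0a1 to 86.0 over all libraries. Atp6v0c and Atp6v1h were lower, at 34.8 and 19.7. Of the hydrolases, Ids came to 119 and Lgmn, the next, to 48.2, while Hexa, Gusb and Naglu came to 38.1, 5.90 and 3.45. Atp6v0d2 was the lowest of the 40, at 0.12.

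Atp6v1b2 (chr8:69088646-69113711) encodes the brain form of a V1 subunit that binds ATP. It stood at 849, 829, 819, 849 and 858 CPM in control at 3 months and 849, 832, 841, 848 and 777 at 10 months, and in KI at 869, 828, 828, 814 and 838 and 866, 919, 981, 845 and 857. Its ages overlapped in both genotypes (-0.02 ± 0.05 and 0.10 ± 0.05, adjusted p = 0.936 and 0.239, edgeR). Atp6v1a, the catalytic subunit, had age changes of -0.05 ± 0.09 in control and -0.06 ± 0.09 in KI, and Atp6v1h, which couples V1 to V0, 0.01 ± 0.07 and 0.11 ± 0.07.

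In the V0 part, Atp6v0a1 (chr11:101009452-101063719) encodes the large membrane subunit typical of neurons. It had 594, 603, 618, 583 and 534 CPM in control at 3 months and 535, 552, 604, 559 and 517 at 10 months, and in KI 536, 553, 564, 601 and 592 and 555, 528, 495, 592 and 559.9. The groups overlapped, with age changes of -0.08 ± 0.06 and -0.06 ± 0.06. Atp6v0b, a ring subunit, had 0.03 ± 0.09 and 0.10 ± 0.09, not called.

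Atp6v0c (chr17:24163866-24169702) encodes the main proton-carrying ring subunit, and its values scattered most among the V-ATPase genes other than Atp6v0d2. It had 133, 162, 161, 128 and 127 CPM in control at 3 months and 94.9, 131, 96.0, 156 and 91.4 at 10 months, and in KI 76.0, 60.7, 145, 131 and 175 and 113, 105, 62.5, 108 and 96.4. The age changes of -0.32 ± 0.23 and -0.27 ± 0.23 were not called. A pseudogene elsewhere in the genome (Gm15487 in the table) shares 99.7% of 387 aligned bases and took 7.80 to 75.7 CPM, so how reads were divided between the copies is uncertain. Their sum at 10 months was 0.923 times that at 3 months in control and 0.894 times in KI (exact permutation p = 0.349 and 0.690, n = 5).

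The 2 d subunits, which sit where V0 meets the turning stalk, are given side by side. Atp6v0d1 (chr8:105524465-105566047), the widely expressed form, had 241, 236, 228, 241 and 245 CPM in control at 3 months and 228, 248, 257, 259 and 225 at 10 months, and in KI 213, 231, 249, 246 and 248 and 271, 276, 256, 262 and 244. The groups overlapped (0.03 ± 0.06 and 0.14 ± 0.06, adjusted p = 0.904 and 0.134, edgeR). Atp6v0d2 (chr4:19876841-19922605), the form known from osteoclasts and macrophages, is given in raw counts because it was rare.

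Atp6v0d2 had 0, 1, 0, 0 and 1 counts in the control libraries at 3 months and 33, 10, 14, 24 and 34 at 10 months. The KI libraries had 0, 3, 1, 2 and 1 counts at 3 months and 42, 13, 42, 48 and 74 at 10 months. It was at or near 0 in all 3-month libraries and present in all 10-month ones. Scaled to library totals, the summed counts of 2 and 115 in control gave a ratio of 54.8, and those of 7 and 219 in KI a ratio of 29.0. Both ratios are imprecise, as they rest on very few counts at 3 months. They are given without an interval or a test, since the gene passed the filter only through the 10-month groups. Per length, its 10-month means were 0.164 CPM per kilobase in control and 0.302 in KI, beside 136 and 146 for Atp6v0d1.

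The classes were also averaged per library. The mean centred log2 CPM of the 21 hydrolases was -0.19 ± 0.05 in control and -0.17 ± 0.10 in KI at 3 months, and 0.16 ± 0.07 and 0.21 ± 0.04 at 10 months (SD, n = 5). This mean includes Lyz2, with a log2 age change of 2.71 in control. The median change of the 21 hydrolases in control was 0.17, and 15 of them were not called there. The 10 cofactors and membrane proteins went from -0.30 ± 0.07 and -0.26 ± 0.07 to 0.23 ± 0.09 and 0.33 ± 0.08. The 7 V-ATPase subunits other than Atp6v0d2 stayed between -0.02 and 0.04 in the 4 group means, with library values from -0.15 to 0.12.

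**Figure D3:**
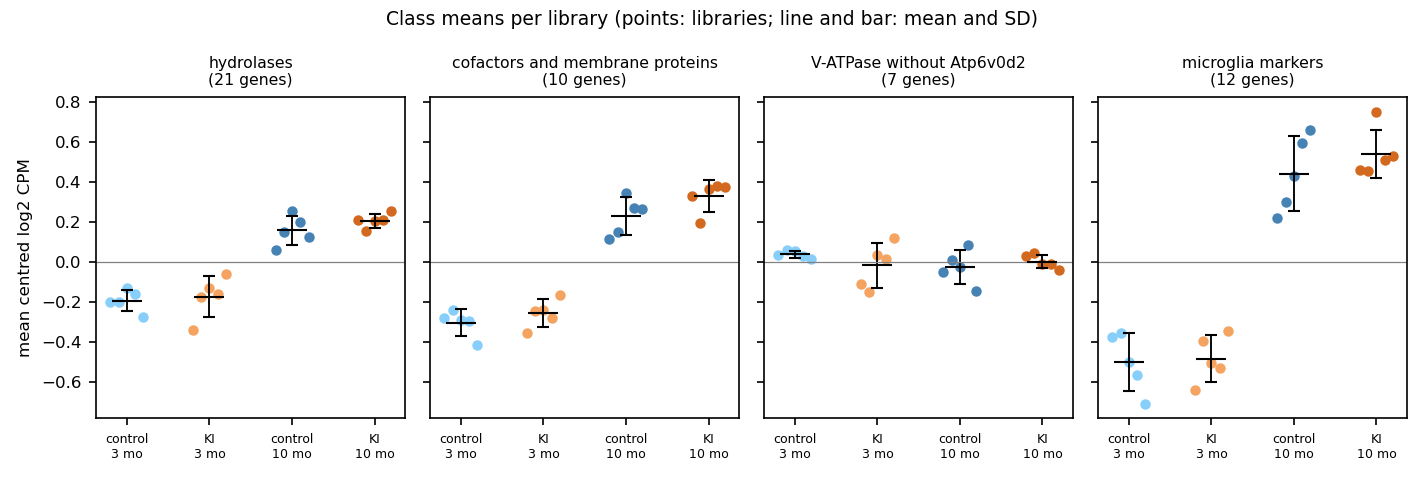
Mean centred log2 CPM per library (points; line and bar are mean and SD, n = 5) of 3 classes of the genes and of 12 microglia markers, by group. Hydrolases, cofactors with membrane proteins, and microglia markers lie above 0 in all 10-month libraries and below 0 in all 3-month ones, while the V-ATPase panel overlaps between ages.

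Markers of microglia moved with the genes that rose. All 12 microglia markers were detected, 9 of them rose with age in control and 10 in KI, and their summed level was 286 to 372 CPM in control and 316 to 373 in KI at 3 months, and 534 to 739 and 649.6 to 765 at 10 months. They rose unevenly, with log2 age changes from 0.24 to 1.79 in control and from 0.25 to 1.78 in KI. P2ry12 and Tmem119 were called by edgeR in neither genotype. DESeq2 and limma-voom called both in KI, and limma-voom also called P2ry12 in control. Of 12 markers of the microglial state found around amyloid, among them Cst7, Itgax and Clec7a, 11 rose in control and 12 in KI, and the sum went from 162 to 183 and 162 to 190.3 CPM at 3 months to 358 to 467 and 439 to 675 at 10 months. Monocyte and neutrophil markers (6 of 6 detected) summed to 1.23 to 4.12 CPM in all libraries, and border macrophage markers (6 of 6) to 4.48 to 18.3 CPM.

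Markers of other cell types also differed between ages. Of 7 astrocyte markers Gfap (2.16 ± 0.14 in control and 2.46 ± 0.14 in KI) and S100b (0.38 ± 0.06 and 0.42 ± 0.06) rose in both genotypes (edgeR). The summed astrocyte markers in control lay at 4625 to 4923 CPM at 3 months and 5195 to 6129 at 10 months, without overlap. In KI they lay at 4229 to 5897 CPM and then 5414 to 6371, with overlap. All 5 thalamus markers fell in KI and 1, Shox2, in control, and of 4 endothelial markers Cldn5 (-0.78 ± 0.17) and Cdh5 (-0.44 ± 0.10) fell in KI. The summed neuron markers overlapped between ages. Of the 9, Gad1 fell in KI (-0.23 ± 0.06, adjusted p = 0.0184, edgeR), and in control it was called by DESeq2 and limma-voom but not by edgeR (-0.21 ± 0.06, adjusted p = 0.0553). The part of these cell types in the changes of the lysosomal genes was not tested.

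Each of the 12 genes that rose in CPM in at least 1 genotype was then divided, in each library, by the summed microglia markers. The change was tested by exact permutation of the libraries, and the p-values of these 12 genes are not adjusted, nor independent, since all share 1 divisor. The genes were chosen for their rise with age in these same libraries, and the p-values do not account for that choice. Lyz2 was 3.47 times as high at 10 months on this scale in control and 3.58 times in KI, Cd68 2.17 and 2.37 times, and Laptm5 1.31 and 1.39 times (exact p = 0.00794 each, the smallest that 5 against 5 allows). Gusb was 1.08 times in control (exact p = 0.294) and 1.27 times in KI (exact p = 0.00794). Hexa, Man2b1, Npc2 and Grn lay at 0.841 to 0.906 times, and Lgmn, Tpp1, Lamp1 and Naglu at 0.570 to 0.868 times. Lgmn, Tpp1 and Lamp1 had an exact p of 0.00794 in both genotypes, and Hexa and Man2b1 in KI only. Naglu had an exact p of 0.0159 in control and 0.286 in KI, and Npc2 0.0873 and 0.0317. On this scale 4 of the 12 lay above 1 in both genotypes and 8 below 1, and 3 of each had the smallest possible exact p in both. The summed markers themselves rose with age without overlap in both genotypes, so a gene that kept its CPM would also lie below 1. A small exact p below 1 therefore does not show that a gene fell. Since the markers rose unevenly, the side of 1 on which a gene lies depends on which markers make up the sum. What part the markers have in the change of any gene was not tested.

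Tfeb (chr17:47737030-47792419) was low and scattered. It had 2.71, 3.57, 3.28, 2.79 and 2.65 CPM in control at 3 months and 2.23, 2.63, 5.55, 4.05 and 2.71 at 10 months, and in KI 1.54, 2.52, 2.74, 3.62 and 3.91 and 3.81, 2.48, 2.04, 3.06 and 2.79. All groups overlapped, and no contrast was called. Of 19 tested genes (20 listed) of the TFEB relatives and of the mTORC1 machinery that holds them in the cytosol, 0 were called with age in either genotype by edgeR, with median changes of 0.02 and 0.01 and 0 and 2 of the 19 under an unadjusted p of 0.05. DESeq2 also called none, and limma-voom called none in control and 2 in KI, Fnip2 and Rragc. The kinase gene Mtor had a log2 age change of -0.14 ± 0.07 in control, and Mitf, a relative of Tfeb, 0.14 ± 0.12.

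Promoter sequences were available from RefSeq (GRCm38.p6, 250 bases before to 50 after the start) for 35 of the 40 genes. The letters TCACGTG, read on both strands (CACGTGA on the other) and containing the E-box CACGTG, stood in 12 of the 35 (34.3%) and in 4.29% of 27025 promoters of the same length. This is the core of the element bound by TFEB. It was found in 7 of 20 hydrolase promoters, 3 of 5 V-ATPase promoters and 2 of 9 of cofactors and membrane proteins. It stood in 1 of the 10 genes with a promoter that rose in control (Lgmn) and in 11 of the 25 that were not called in control. Among these 11 were Lamp1 and Naglu, which rose in KI. Stretches of 60 bases upstream of the start site and of the gene's deposited span are shown for 5 genes, to show how sites read in a gene that rose in KI (Lamp1), in hydrolases that were not called (Gla, Gaa), in a V-ATPase subunit (Atp6v0b) and in a channel (Mcoln1), 5′ to 3′ on the gene's strand with the matches in capitals.
Lamp1: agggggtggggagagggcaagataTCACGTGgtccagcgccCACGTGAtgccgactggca
Gla: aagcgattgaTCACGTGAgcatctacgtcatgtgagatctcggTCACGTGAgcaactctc
Gaa: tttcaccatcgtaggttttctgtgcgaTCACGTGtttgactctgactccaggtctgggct
Atp6v0b: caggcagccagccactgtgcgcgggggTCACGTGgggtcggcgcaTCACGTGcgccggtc
Mcoln1: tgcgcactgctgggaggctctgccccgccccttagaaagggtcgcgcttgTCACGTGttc
They lie at chr8:13159075-13159134, plus strand (Lamp1), chrX:134601184-134601243, minus strand (Gla), chr11:119267795-119267854, plus strand (Gaa), chr4:117887334-117887393, minus strand (Atp6v0b) and chr8:3500397-3500456, plus strand (Mcoln1). The last site shown ends 38 bases before the start site in Lamp1, 187 in Gla, 134 in Gaa, 12 in Atp6v0b and 65 in Mcoln1. The whole promoter window of Lamp1 held 4 separate sites, of which 2 are shown, and that of Mcoln1 held 2, of which 1 is shown. Gla and Atp6v0b held 2 and Gaa 1, all shown, and in Gla both sites read as the motif on either strand. The letters GAGGAAGT, a site type of the myeloid factor PU.1 (ACTTCCTC on the other strand), stood in 2 of the 35 promoters, Gusb and Gla, and in 3.69% of all. Each match describes the letters of these windows and does not show binding.

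Other lysosomal genes were listed for comparison. Of 25 further hydrolases and their cofactors 8 rose with age in control and 12 in KI, and none fell (median log2 changes 0.21 and 0.22). Dnase2a and Pld4, which act on nucleic acids, had log2 changes of 0.93 ± 0.09 and 0.88 ± 0.12 in control (adjusted p = 6.91e-07 and 4.06e-05, edgeR). Of 26 further membrane proteins 4 rose in each genotype (medians 0.04 and 0.08), among them Slc11a1, a metal transporter of phagocytes (2.05 ± 0.14 in control), Slc15a3, a peptide and histidine transporter (2.11 ± 0.16), and Cd63 (0.64 ± 0.09).

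Of 17 further V-ATPase genes 14 were tested. Tcirg1, the large V0 subunit known from osteoclasts and immune cells, rose in control from 12.9 to 18.0 CPM (0.49 ± 0.13, adjusted p = 0.0296) and in KI (0.50 ± 0.13, adjusted p = 0.0175, edgeR). Atp6v1g2, a V1 subunit typical of neurons, was also called in KI, and the medians of the 14 were 0.01 and 0.07. Of 10 genes that tag enzymes with mannose 6-phosphate, sort them to lysosomes or activate sulfatases (Sumf1), edgeR called none higher. M6pr, the small mannose 6-phosphate receptor, had 0.17 ± 0.05 in KI (adjusted p = 0.0542, edgeR) and was called there by DESeq2 and limma-voom. Igf2r, the large mannose 6-phosphate receptor, fell in KI (-0.30 ± 0.08, adjusted p = 0.0140, edgeR).

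Between the genotypes no lysosomal gene was called. At 3 months 0 of 40 passed in edgeR (0.0255% of all genes did, 0.0102% upward), and 1, Lyz2, had an unadjusted p under 0.05, where 3.8% of all genes had such a p. DESeq2 and limma-voom called none there either. At 10 months edgeR again called 0 of 40 (0.0612% of all genes, 0.0357% upward), and 9 had an unadjusted p under 0.05, all higher in KI (Gusb, Lyz2, Npc2, Cd68, Lamp1, Atp6v0d2, Atp6v1b2, Arsb and Glb1), where 7.86% of all genes had such a p and 4.53% had it upward. DESeq2 called 1 of the 40 at 10 months, Gusb (adjusted p = 0.043), and limma-voom none. Averaged over ages edgeR called 0 of 40 (0.0764% of all genes), with 8 under an unadjusted p of 0.05, all higher in KI (6.52% of all genes in either direction and 3.94% upward), while DESeq2 called Lyz2 and limma-voom Glb1 and Npc2. For the interaction of genotype and age edgeR called 0 of 40 and 0% of all genes. Gusb was the 1 gene of the 40 with an unadjusted p under 0.05 there, which 4.5% of all genes had (0.31 ± 0.11, adjusted p = 0.999).

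The smallest p-values between genotypes at 10 months belonged to Gusb, Lyz2, Npc2 and Cd68, which also rose with age, a comparison that uses the same 10-month libraries. Lyz2 had a mean of 46.8 ± 5.80 CPM in control and 66.7 ± 14.0 in KI (0.51 ± 0.15, adjusted p = 0.372 in edgeR, exact permutation p = 0.0159, n = 5). Its 3-month values were 7.13 ± 1.28 and 9.34 ± 1.95 (0.39 ± 0.16, adjusted p = 1). Gusb had 33.4 ± 3.18 and 41.4 ± 4.24 at 10 months (0.31 ± 0.08, adjusted p = 0.242 in edgeR, exact permutation p = 0.0159, n = 5) and 0.01 at 3 months. The exact p-values are not adjusted for the number of genes examined, and in both genes 1 or more control libraries lay within the KI range. Without KI replicate 5, the library that did not match its label, the 10-month differences were 0.37 ± 0.14 for Lyz2 and 0.25 ± 0.07 for Gusb (adjusted p = 0.383 and 0.249, edgeR), and again 0 of the 40 genes were called.

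Npc2 had 76.7 ± 6.14 CPM in control and 90.2 ± 5.93 in KI at 10 months (0.23 ± 0.07, adjusted p = 0.372 in edgeR, exact permutation p = 0.0238, n = 5), and Cd68 35.4 ± 5.05 and 45.2 ± 7.13 (0.35 ± 0.14, adjusted p = 0.526, exact permutation p = 0.0556). For none of the 40 genes were all KI libraries above or below all control libraries at either age, which 0.306% of all genes showed upward and 0.352% downward at 3 months, and 0.907% and 0.586% at 10 months. At that age the summed microglia markers overlapped between the genotypes, and the summed markers of the amyloid-associated state reached 358 to 467 CPM in control and 439 to 675 in KI. Their part in the values of any gene was not tested. The hydrolases had a median log2 difference of 0.03 at 10 months and the 7 V-ATPase subunits other than Atp6v0d2 of 0.07.

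**Figure D4:**
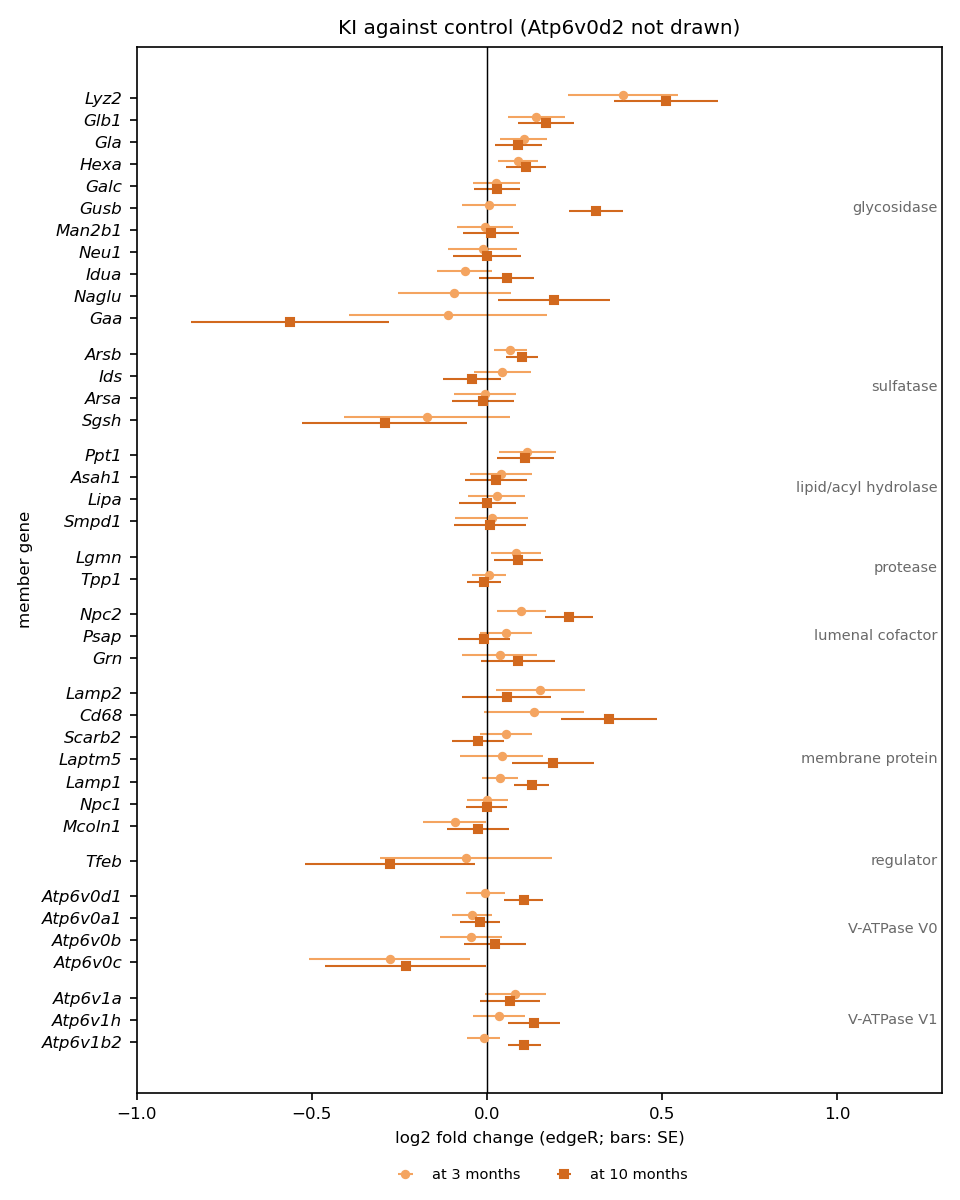
Log2 fold change of KI against control (horizontal axis, edgeR, bars are SE) for 39 of the 40 genes at 3 months (circles) and 10 months (squares). No value passed the test, and Lyz2, Cd68 and Gusb lie highest at 10 months, Gusb at 0.31.

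Within groups, libraries differed along the GC content of the transcripts. The slope of a library's deviation on GC content, over all genes, ran from -0.48 log2 units per 10 percentage points (KI replicate 3 at 3 months) to 0.27 (control replicate 8 at 10 months). Across the 39 genes other than Atp6v0d2 the deviation from the group mean had a Pearson r with GC content of -0.84 in KI replicate 3 at 3 months, -0.87 in control replicate 6 at 10 months, 0.76 in KI replicate 6 at 3 months and 0.70 in control replicate 8 at 10 months. These are descriptions across genes that share a library. Gaa, Sgsh, Tfeb and Naglu, rich in GC, and Atp6v0c had the largest spread within groups (SD 0.51, 0.43, 0.42, 0.27 and 0.42 log2 units), which limits what could be detected for them. With the slope as a covariate, a setting chosen after the data had been examined, 15 of the 39 were called higher with age in control and 18 in KI, where 5.79% and 10.9% of all genes were called higher. Over all genes, calls in either direction went from 799 to 2009 in control and from 1582 to 4086 in KI. Beyond the genes called without it, Asah1, Galc, Glb1 and Lamp2 were called in both genotypes, and Naglu was now called in control as well as in KI. Idua and Atp6v0d1 were added in KI (adjusted p = 0.015 for Atp6v0d1, edgeR).

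**Figure D5:**
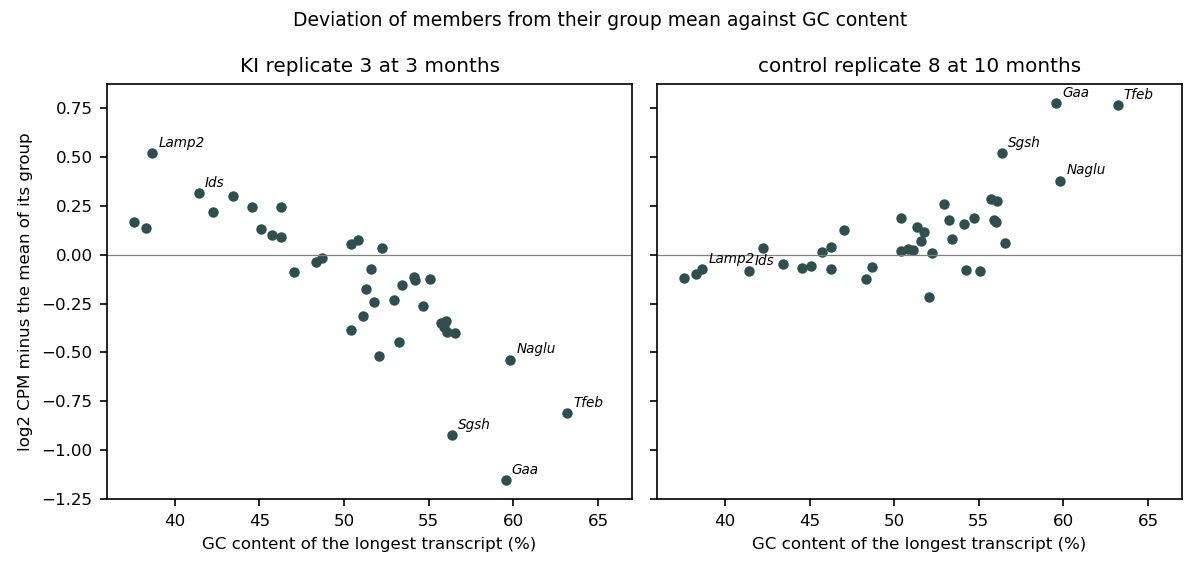
Deviation of 39 genes from their group mean (vertical axis, log2 CPM) against the GC content of the longest transcript (horizontal axis, %), in 2 libraries. In KI replicate 3 at 3 months the GC-rich Gaa, Sgsh and Tfeb lie lowest, and in control replicate 8 at 10 months Gaa and Tfeb lie highest.

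Several counts carry a limit from the gene models. Atp6v1h, Atp6v1b2, Atp6v0b, Ppt1, Idua, Glb1, Grn, Sgsh, Arsa, Arsb and Npc1 overlap another annotated gene, and whether strand was used in counting is not given in the sources used here, so their counts may include reads of the neighbour.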

How the data were processed

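Cortex RNA was sequenced in 20 libraries, 5 per group. Raw, unnormalised read counts for every annotated gene were deposited as a single table with coordinates and gene lengths. Per the submitters' processing notes, mm10 was the build. How reads were aligned and counted, and whether by strand, is not given in the sources used here. All 37 mitochondrial genes were 0 in every library. Libraries were grouped by the labels' genotype and age.

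Counts were tested with edgeR 4.0.16 (filterByExpr, TMM factors 0.972 to 1.03, robust quasi-likelihood fit of 4 group means over 20 libraries, 16 residual degrees of freedom), with Benjamini-Hochberg adjustment over 19623 genes and a threshold of 0.05. Errors are the SE for log2 fold changes; CPM values carry the SD over 5 libraries. Exact 2-sided permutation tests used every assignment of 5 against 5 libraries, with a smallest p of 0.00794. Class means use log2 CPM with a prior count of 2, centred on each gene's mean. Alternatives were DESeq2 1.42.0, limma-voom (limma 3.58.1), other scaling and filters, only the libraries compared, a replicate block and leaving out each library. The edgeR script was tested on simulated data.

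The members and the gene lists beside them were chosen with earlier results of these data known. In each of 3 classes (hydrolases, cofactors with membrane proteins, V-ATPase), 3 members per comparison were given in full, namely those of smallest p for age in control and for genotype at 10 months, plus Tfeb and both d subunits; of each list beside them, up to 4 genes of smallest p for age in control, of which 1 is not reported here. GC content and near-identical copies (at least 95% over 200 bases, blastn 2.17.0) came from GENCODE M21 transcripts.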

Additional observations from a re-analysis of the deposited data

Results flagged for a closer look

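In 10 of the 160 sets of 5 libraries (40 genes in 4 groups), the highest or lowest library stood apart from the rest by Dixon's criterion, where chance alone gives about 1 in 20. KI replicate 5 at 10 months accounted for 4 of them. This library had female-typical Xist counts. It also had a slope on GC content of -0.25 log2 units per 10 percentage points, beside -0.18 in control replicate 6 at 10 months. The part of either in its values was not tested. It was the highest of its group in Lyz2 (90.7 CPM, next 64.8), Ids (664.8 CPM, next 580.3) and Atp6v1a (859 CPM, next 668), and the lowest in Smpd1 (81.2 CPM, next 101). Lyz2 stood apart in control replicate 10 as well, lowest at 3 months (4.94 CPM, next 7.33) and highest at 10 months (57.0 CPM, next 45.3). Whether these libraries share more than genotype and a replicate number is not stated. Control replicate 6 at 10 months was lowest in Arsa (32.5 CPM, next 37.6) and highest in Atp6v1a (735 CPM, next 647). Its deviations across the 39 genes other than Atp6v0d2 had a Pearson r of -0.87 with GC content. Lipa was lowest in control replicate 9 at 10 months (27.9 CPM, next 30.4), and Atp6v1b2 in control replicate 10 at 10 months (777 CPM, next 832). Without KI replicate 5 at 10 months, the age comparison in KI called 13 of the 39 genes other than Atp6v0d2 instead of 12.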

How the results depend on the processing

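Of the 39 genes other than Atp6v0d2, edgeR called 10 with age in control and 12 in KI. Over the alternatives at the same threshold these counts ran from 8 to 15 and from 8 to 18. Leaving out 1 of the libraries compared gave 10 each time in control and 12 to 13 in KI. Limma-voom gave 11 (Naglu added) and 15 (Galc, Idua and Lamp2 added). Calls over all genes moved too, as listed below, with 1260 and 3055 by limma-voom beside 799 and 1582 by edgeR. Another 3 settings were chosen after the data had been examined. Removing the 11 libraries with more than 500 CPM of choroid plexus markers left 9, with fewer than 5 in every group. Both counts were then 8, and Lgmn, Tpp1, Naglu and Lamp1 were not called. Without KI replicate 3 at 3 months and KI replicate 5 at 10 months both were 12. With the per-library slope on GC content as a covariate they were 15 and 18. A filter at a mean of 1 CPM removed Atp6v0d2.

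Between genotypes at 10 months 0 of the 40 were called by edgeR, 1 by DESeq2 (Gusb) and 1 with the GC covariate (Npc2). Averaged over ages 0 were called by edgeR, 1 by DESeq2, 2 by limma-voom and 2 with the GC covariate. Lamp1 with age in KI lost its call with only the libraries compared (0.22, adjusted p = 0.066) and in the 9 libraries low in choroid plexus markers (0.24, adjusted p = 0.287).

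Signs turned in 9 uncalled genotype values, and the cause was not tested. In the 9 libraries, Gusb at 3 months was -0.15, Cd68 at 3 months -0.071 and Laptm5 at 10 months -0.028. With limma-voom Tfeb at 10 months was 0.030. With the replicate block Tfeb was 0.32 at 3 and 0.20 at 10 months, Atp6v0a1 0.026 and 0.049, and Atp6v0c 0.049 at 10 months. Of the other single-gene values under an alternative 1101 kept direction and call.

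No pairing by replicate number was seen in the correlations: of 18 pairs 3 correlated above 0.1, and 1 of 20 libraries correlated best with its own number. Weak correlations cannot tell whether libraries of the same number share an origin, since other differences between libraries may cover it. With the replicate block 10 of the 39 genes other than Atp6v0d2 were called with age in control and 12 in KI, as without it. In each genotype comparison 0 of the 40 were called, again as without it.

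The count over all genes moved more. With age it was 799 in control and 1582 in KI by edgeR, 1260 and 3055 by limma-voom, 2009 and 4086 with the GC covariate, 166 and 370 in the 9 libraries, and 958 in KI with only the libraries compared. Between genotypes at 3 months it was 5 by edgeR, 12 by DESeq2 and by limma-voom, 11 with the GC covariate and 8 in the 9 libraries. At 10 months it was 12 by edgeR, 58 by DESeq2, 67 by limma-voom, 84 with the GC covariate, 7 with only the libraries compared, 4 with the block and 2 in the 9 libraries, and 7 without any of control replicates 6, 9 or 10 or KI replicate 3. Averaged over ages it was 15, 49 by DESeq2, 53 by limma-voom, 68 with the GC covariate, and 4 both with the block and in the 9 libraries. For the interaction it was 0, 4 by DESeq2 and 3 by limma-voom.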
